A study of Mus musculus with 8 samples.

Results

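Macrophages that carried the control hairpin were compared with and without RANKL. All 4 NCsh libraries of the 8 in the series were taken, 2 without RANKL and 2 with it, chosen by their hairpin label and not by any measured value. The cells were bone marrow-derived macrophages of C57BL/6 mice aged 6 to 8 weeks, cultured with 30 ng/ml of M-CSF, which keeps this lineage alive. Where RANKL was added, its dose was 100 ng/ml over 24 h. The other 4 libraries carried a hairpin labelled TMBIM6sh in the same 2 RANKL states and were used for the shared estimate of spread and, at the end, beside the NCsh values. The labels do not spell NCsh out, each side has 1 hairpin, and the way the hairpins were delivered is not given in the sources used here. The protocol text of every sample mentions TMBIM6 depletion and RANKL alike, so hairpin and RANKL state were taken from the sample titles. Nothing in the labels says that the 2 libraries of a group came from separate animals or cultures, so the p-values measure the spread between libraries, which may be technical.

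RANKL is the cytokine that turns macrophage precursors into osteoclasts, the cells that resorb bone. It binds RANK, whose adaptor proteins switch on canonical NF-kappaB, noncanonical NF-kappaB and MAP kinases, and with signals from immunoglobulin-like costimulatory receptors this leads to Fos and then NFATc1, the factor that drives the genes for cell fusion and resorption. Early in this course, before cells fuse, precursors also divide and lose macrophage features.

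Depth was 25475000 to 28595000 tags per library, of which 83.5% to 86.4% lay in exons, and duplicates correlated at 0.993 to 0.995 across genes. The third principal component, with 6.13% of the variance, set NCsh no-RANKL library 2 apart from the other NCsh libraries (score 11.6 against -6.64 to -1.11). TMBIM6sh RANKL library 2 also scored high on it (6.8). The 2 NCsh libraries without RANKL differed more (median absolute log2 difference 0.115) than those with it (0.0823). Macrophage markers were abundant: all 12 passed the filter and summed to 9708 and 11159 RPKM without RANKL and 9442 and 9535 RPKM with it. Markers of other cell types were low, with sums of 8.81 to 10.8 RPKM for 8 dendritic cell markers (mostly Itgax), 22.6 to 28.1 RPKM for 9 neutrophil markers (mostly S100a8), 4.27 to 5.47 RPKM for 10 stromal markers and 2.35 to 5.53 RPKM for 10 lymphocyte markers. The 7 erythroid markers summed to at most 0.127 RPKM, and the 6 mast cell and basophil markers to at most 0.014 RPKM. Tmbim6 itself stood at 330 and 334 RPKM without RANKL and 309 and 321 RPKM with it (log2 -0.08, adjusted p = 0.419).

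RANKL changed the expression of 1653 of 11040 genes tested (15.0%) in the NCsh libraries, at an adjusted p under 0.05 from limma on log2(RPKM + 1). RPKM is the number of reads per kilobase of exon, scaled to the size of the library, so a value is a level relative to the rest of the library. Higher levels were called for 1214 genes (11.0%) and lower levels for 439 (3.98%). Most changes were small: 43 genes (0.389%) rose and 10 genes (0.0906%) fell by 2-fold or more on this scale, and the middle 90% of all genes tested lay between -0.29 and 0.50. The median over all genes tested was 0.06 and 63.2% of genes were above 0. After scaling the libraries by their median ratio the median was -0.0032, and 800 genes were called higher and 836 lower, so the surplus of rises in the deposited values depended on the scaling. Both libraries with RANKL lay above both without it for 39.0% of genes tested and below for 17.1%. The number of calls was 694 (503 higher, 191 lower) without NCsh RANKL library 1 and 887 (665 higher, 222 lower) without NCsh RANKL library 2, and 17 genes fell by 2-fold or more without NCsh RANKL library 2. Below, the count of a list without a library or after median-ratio scaling is given where it moved by more than 1.5 times or from 0. Each list count is to be read beside the 11.0% higher and 3.98% lower among all genes tested.

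**Figure D1:**
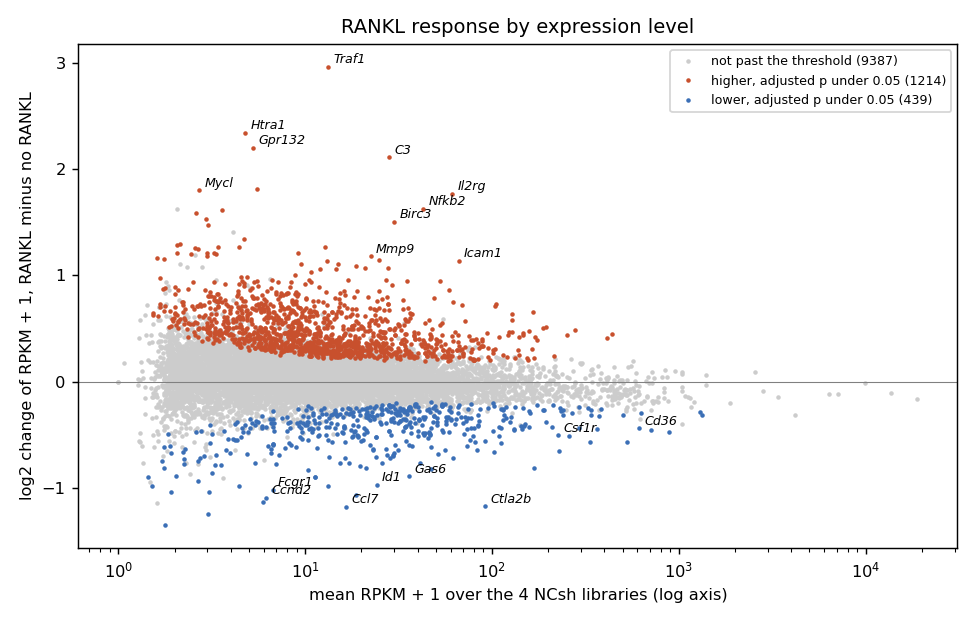
Each point is a gene tested, placed by its mean RPKM + 1 over the 4 NCsh libraries (log axis) and by its log2 change with RANKL; the 1214 higher and 439 lower calls are coloured. Traf1 stands highest at 2.97, and most calls lie within 1 log2 unit of 0.

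In the noncanonical NF-kappaB pathway, the kinase NIK frees the p100 product of Nfkb2 to become p52. The gene list for this pathway was drawn up with earlier results of these data known. It includes Traf1, which had the largest rise on the log2(RPKM + 1) scale, on which low genes count for less. Of the 10 listed genes 8 rose and 0 fell, where 11.0% of all genes tested rose. The median log2 change of the list was 0.66 against 0.06 over all genes tested. Traf1, an adaptor that binds TNF receptors and is itself a known target of NF-kappaB, stood at 2.05 and 1.998 RPKM without RANKL and 22.5 and 22.7 RPKM with it (log2 2.97, SE 0.0795, adjusted p = 1.27e-07). Its duplicates were nearly equal, and the groups lay 11.2-fold apart by the ratio of means. Nfkb2, which encodes p100, stood at 20.2 and 19.7 RPKM without RANKL and 64.4 and 62.8 RPKM with it (log2 1.63, SE 0.0593, adjusted p = 7.76e-07). Its partner Relb went from 13.02 and 14.05 to 19.8 and 19.1 RPKM (log2 0.49, adjusted p = 0.00237), a smaller step with no overlap between groups.

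The ubiquitin ligase complex that holds NIK down had all 4 of its genes higher. Birc3, the inducible ligase of that complex, stood at 15.6 and 13.5 RPKM without RANKL and 44.4 and 41.7 RPKM with it (log2 1.51, SE 0.0923, adjusted p = 2.84e-05), and its relative Birc2 went from 4.35 and 4.45 to 7.17 and 7.15 RPKM (log2 0.59, adjusted p = 0.00125). The adaptors of the complex, Traf3 (6.81 and 6.35 to 11.2 and 11.1 RPKM, log2 0.68, adjusted p = 0.000367) and Traf2 (8.86 and 8.72 to 14.3 and 14.6 RPKM, log2 0.66, adjusted p = 0.000425), were higher by similar amounts. Map3k14, which encodes NIK, went from 4.55 and 3.27 to 6.65 and 6.80 RPKM (log2 0.67, adjusted p = 0.0128), and its duplicates without RANKL were the least alike of the pathway. The kinase Chuk (log2 0.21, adjusted p = 0.103) and the deubiquitinase Otud7b (log2 0.22, adjusted p = 0.117) did not pass the threshold. Relb, Birc2, Map3k14, Chuk and Otud7b are outside the rule for named genes and are given here, after their values were seen, to complete the pathway.

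None of the 5 canonical NF-kappaB genes passed the threshold, and their log2 changes ran from -0.01 to 0.22. Rela, the main transactivating subunit, stood at 37.3 and 34.3 RPKM without RANKL and 40.6 and 39.5 RPKM with it (log2 0.16, SE 0.0656, adjusted p = 0.136). Nfkb1, which encodes p105 and p50, stood at 30.6 and 29.1 RPKM without RANKL and 29.7 and 29.5 RPKM with it (log2 -0.01, SE 0.0592, adjusted p = 0.914), with overlapping groups. Rel overlapped as well (log2 0.01, adjusted p = 0.965). With limma 3 of the 5 had an unadjusted p under 0.05, as had 3331 of all 11040 genes tested. With voom weights on recovered tags 2 of the 5 were called higher.

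**Figure D2:**
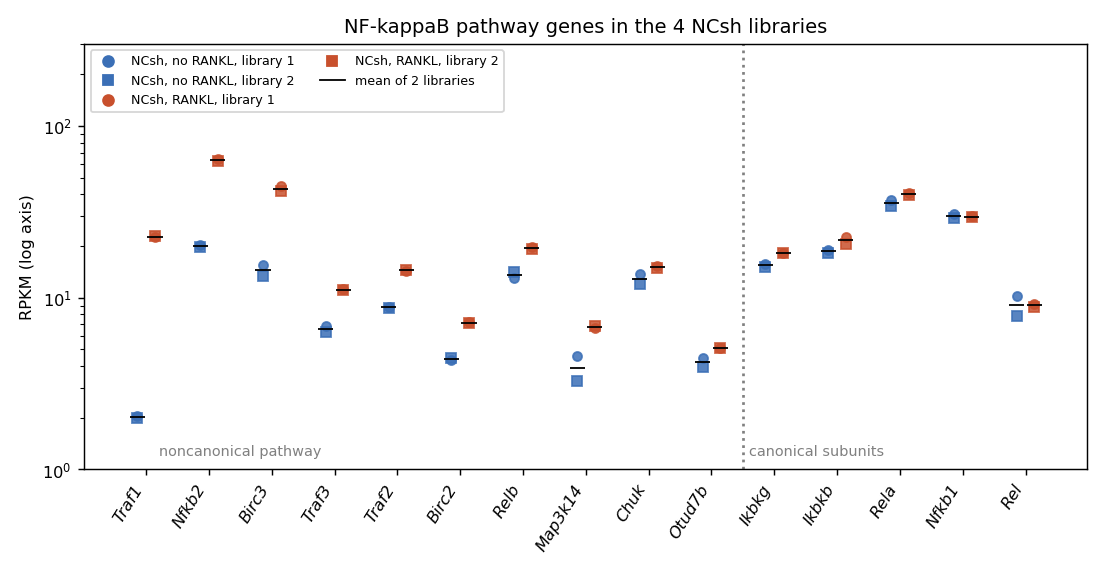
RPKM on a log axis for the 10 noncanonical pathway genes and the 5 canonical genes in the 4 NCsh libraries, with circles for library 1, squares for library 2 and bars for the mean of 2. The groups lie farthest apart for Traf1, Nfkb2 and Birc3, and those of Nfkb1 and Rel overlap.

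Inhibitors and feedback genes of NF-kappaB rose in 5 of 13 cases and fell in 0, with a median of 0.24. Nfkbie, which encodes the inhibitor IkappaB epsilon, went from 7.18 and 7.21 to 16.2 and 17.9 RPKM (log2 1.13, SE 0.0861, adjusted p = 8.96e-05) and was called under each alternative tried. Nfkbia, which encodes IkappaB alpha, stood at 12.1 and 14.8 RPKM without RANKL and 48.9 and 19.3 RPKM with it, so that 1 library carried most of the difference. Its adjusted p was 0.0403, and the call ended without any 1 library but NCsh RANKL library 2 (adjusted p up to 0.131). Tnfaip3, which encodes the ubiquitin-editing enzyme A20, stood at 14.3 and 12.6 RPKM without RANKL and 13.98 and 15.2 RPKM with it (log2 0.11, adjusted p = 0.415), with overlapping groups. The count of 5 fell to 1 without NCsh RANKL library 1 and to 2 without NCsh RANKL library 2 or NCsh no-RANKL library 1, and it was 3 without either TMBIM6sh no-RANKL library or after median-ratio scaling. There was 1 fall without NCsh no-RANKL library 2 or after that scaling.

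The noncanonical and inhibitor lists were both chosen for a part in NF-kappaB signalling. Their promoters were read for kappaB sites, the decameric elements that NF-kappaB dimers bind. Promoter windows ran from 250 bases before to 50 bases after each RefSeq start in GRCm38.p6, and kappaB matches were searched on both strands, with overlapping matches of a motif merged. Of the inhibitor list 12 of 13 genes had a promoter entry, and a match lay in 8 of their 15 promoters (53.3%). Of the noncanonical list 8 of 10 genes had an entry, and a match lay in 4 of their 11 promoters (36.4%), all of them promoters of Nfkb2 or Traf3. The share was 4.51% of all 32851 promoters, 5.08% of those of genes tested, 6.41% of those of genes called higher and 5.26% of those of genes called lower. Of the 8 inhibitor genes with a match 3 were called higher and 5 were not called (Bcl3, Cyld, Tnfaip3, Tnip1 and Tnip3). Shown is 1 site upstream of the start for each gene of the 2 lists that has one, first 5 genes called higher and then 4 not called, with the kappaB match in capitals.
Nfkb2, chr19:46304683-46304722, plus strand, first capital 39 bases before the start: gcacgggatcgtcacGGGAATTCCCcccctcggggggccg
Traf3, chr12:111166345-111166384, plus strand, first capital 10 bases before the start: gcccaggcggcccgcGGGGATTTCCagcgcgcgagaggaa
Nfkbie, chr17:45555579-45555618, plus strand, first capital 106 bases before the start: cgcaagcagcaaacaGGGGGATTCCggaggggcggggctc
Nfkbid, chr7:30422165-30422204, plus strand, first capital 226 bases before the start: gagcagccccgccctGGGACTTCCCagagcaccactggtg
Nfkbia, chr12:55492652-55492691, minus strand, first capital 29 bases before the start: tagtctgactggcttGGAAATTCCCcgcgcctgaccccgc
Tnip1, chr11:54962974-54963013, minus strand, first capital 58 bases before the start: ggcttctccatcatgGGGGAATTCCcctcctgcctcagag
Tnfaip3, chr10:19015511-19015550, minus strand, first capital 125 bases before the start: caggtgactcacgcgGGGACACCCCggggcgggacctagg
Cyld, chr8:88696858-88696897, plus strand, first capital 155 bases before the start: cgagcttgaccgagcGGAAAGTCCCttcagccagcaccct
Tnip3, chr6:65590329-65590368, plus strand, first capital 54 bases before the start: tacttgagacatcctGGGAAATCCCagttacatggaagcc
A match was thus present both in genes that rose, such as Nfkb2, and in genes that did not pass the threshold, such as Tnip1 (log2 0.15, adjusted p = 0.139) and Cyld (log2 0.24, adjusted p = 0.0802). The call of Nfkbid (log2 0.46, adjusted p = 0.0450) ended without NCsh no-RANKL library 1 (adjusted p = 0.188), NCsh RANKL library 1 (adjusted p = 0.231), NCsh RANKL library 2 (adjusted p = 0.0861), TMBIM6sh no-RANKL library 1 (adjusted p = 0.0655) or TMBIM6sh no-RANKL library 2 (adjusted p = 0.0658). A gene on the opposite strand, 4833438C02Rik, overlaps the start of Nfkb2. Since reads of both strands were counted together, its rise from 4.91 and 4.86 to 11.4 and 10.3 RPKM cannot be told apart from reads of Nfkb2.

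Among the AP-1 factors, which act beside NF-kappaB downstream of RANK, 4 of 11 genes rose and 1 fell (2 after median-ratio scaling). Fos, the AP-1 subunit without which osteoclasts do not form, stood at 52.5 and 50 RPKM without RANKL and 86.8 and 83.8 RPKM with it (log2 0.72, SE 0.0564, adjusted p = 0.000105). Jdp2, a dimer partner that osteoclasts also need, went from 7.64 and 9.25 to 18.7 and 18.6 RPKM (log2 1.06, adjusted p = 0.000288), the largest step of the family. Junb went from 122 and 125 to 168 and 168 RPKM (log2 0.44, adjusted p = 0.00103), and Atf3, a stress-induced member, was lower (124 and 132 to 98.5 and 100.5 RPKM, log2 -0.36, adjusted p = 0.00379). The groups of these 4 genes did not overlap, but they are among the members with the smallest p, which favours this. Fosl1 was low (1.78 and 1.75 to 2.68 and 2.90 RPKM, log2 0.45, adjusted p = 0.0132), and its call ended without NCsh RANKL library 2 (adjusted p = 0.0780).

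The MYC network had 3 of 11 genes higher and 0 lower. Myc, a growth regulator, stood at 10.8 and 11.2 RPKM without RANKL and 24.4 and 24.8 RPKM with it (log2 1.09, SE 0.0721, adjusted p = 4.54e-05). Mycl, its relative, stood at 0.229 and 0.181 RPKM without RANKL and 3.32 and 3.10 RPKM with it (log2 1.80, SE 0.123, adjusted p = 4.84e-05), which is 15.7-fold by the ratio of means. Its 2 libraries without RANKL held 20 and 17 tags and those with RANKL 279 and 292. Mxd1, an antagonist of MYC, was higher too (log2 0.49, adjusted p = 0.0181), a call that ended without NCsh no-RANKL library 2 (adjusted p = 0.0757), NCsh RANKL library 1 (adjusted p = 0.0824) or NCsh RANKL library 2 (adjusted p = 0.0897).

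NFATc1, the factor usually placed at the end of this cascade, did not change past the threshold. Nfatc1 stood at 6.60 and 5.87 RPKM without RANKL and 6.24 and 6.92 RPKM with it (log2 0.07, SE 0.0908, adjusted p = 0.666), with overlapping groups. Of the 10 calcineurin and NFAT genes tested 2 rose and 0 fell. Nfat5, the tonicity-responsive relative, went from 5.08 and 4.25 to 7.10 and 6.84 RPKM (log2 0.50, adjusted p = 0.0187), a call that ended without NCsh no-RANKL library 2 (adjusted p = 0.0906), NCsh RANKL library 1 (adjusted p = 0.112) or NCsh RANKL library 2 (adjusted p = 0.0709). The count of 2 was 0 without NCsh no-RANKL library 2 or either NCsh RANKL library, and 1 without either TMBIM6sh no-RANKL library or after median-ratio scaling. Of 20 osteoclast transcription factors 6 rose and 0 fell, all 6 of them also in the lists above (Nfkb2, Relb, Myc, Fos, Jdp2 and Junb), and its median was 0.06, that of all genes tested. After median-ratio scaling 1 of them fell.

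Repressors of osteoclast differentiation went both ways, 4 of 15 higher and 4 lower. Among the falls, the transcriptional regulators Irf8 and Id1 restrain osteoclast formation. Irf8 went from 52.98 and 51.8 to 35.9 and 36.03 RPKM (log2 -0.53, SE 0.0650, adjusted p = 0.000935) and Id1 from 28.9 and 32.9 to 13.7 and 16.96 RPKM (log2 -0.97, SE 0.0985, adjusted p = 0.000364). For each of them both libraries with RANKL lay below both without it, which the naming rule required of Id1. Sbno2, which unlike the rest is needed for osteoclast fusion in mice, rose (log2 0.44, adjusted p = 0.00190), as did Traf3. Rbpj, the DNA-binding partner of Notch, was called at an adjusted p of 0.0418, and leaving out any library but NCsh no-RANKL library 1 ended the call (adjusted p up to 0.189). The count of 4 higher was 2 without any 1 of NCsh no-RANKL library 2, NCsh RANKL library 1 and the 4 TMBIM6sh libraries, and 2 after median-ratio scaling.

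RANK itself, encoded by Tnfrsf11a, stood at 40.5 and 39.1 RPKM without RANKL and 40.2 and 41.3 RPKM with it (log2 0.03, SE 0.0569, adjusted p = 0.740), so its groups overlapped. Of the 25 genes for RANK and its costimulatory signalling, 3 were higher (12%, near the 11.0% of all genes tested) and 7 lower (3.98% of all genes tested were lower). Csf1r, the receptor of M-CSF, went from 264 and 267 to 184 and 189 RPKM (log2 -0.51, SE 0.0615, adjusted p = 0.000915). Trem2, a costimulatory receptor that signals through Tyrobp, went from 286 and 321 to 209 and 215 RPKM (log2 -0.51, SE 0.0709, adjusted p = 0.00154), and Tyrobp stood at 747 and 911 RPKM without RANKL and 716 and 729 RPKM with it (log2 -0.19, adjusted p = 0.211). Src, the kinase that the ruffled border of osteoclasts needs, was higher (5.87 and 5.50 to 9.88 and 9.37 RPKM, log2 0.67, SE 0.0866, adjusted p = 0.00116). Without NCsh RANKL library 1 the list had 1 gene higher and 2 lower, and without NCsh RANKL library 2 it had 4 lower.

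Genes of osteoclast fusion and resorption were split, with 3 of 18 tested genes higher, 3 lower and a median of -0.01. Mmp9, a gelatinase of osteoclasts, stood at 12.7 and 12.7 RPKM without RANKL and 29.7 and 30.6 RPKM with it (log2 1.18, SE 0.0596, adjusted p = 8.28e-06) and rose 2.37-fold by the ratio of means. Cd44, a hyaluronan receptor, went from 136 and 127 to 179 and 186 RPKM (log2 0.47, adjusted p = 0.00107). Acp5, the tartrate-resistant acid phosphatase used to stain osteoclasts, stood at 57.1 and 64.7 RPKM without RANKL and 55.98 and 64.1 RPKM with it (log2 -0.02, SE 0.0931, adjusted p = 0.907). Dcstamp, needed for fusion, stood at 1.61 and 0.749 RPKM without RANKL and 0.722 and 0.768 RPKM with it, and its groups overlapped.

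The late markers were close to absent. Ctsk, the collagen-cleaving protease of osteoclasts, was at most 0.044 RPKM in these 4 libraries, Ocstamp at most 0.232 RPKM and Itgb3 at most 0.462 RPKM, and the receptors Calcr and Oscar were at most 0.011 and 0.022 RPKM. All 5 failed the filter and were not tested. Atp6v0d2, a proton pump subunit also needed for fusion, was slightly lower (14.9 and 14.8 to 12.2 and 12.1 RPKM, log2 -0.27, adjusted p = 0.0309), and its call ended without any 1 of the 4 NCsh libraries (adjusted p up to 0.131) and without either TMBIM6sh no-RANKL library. The count of 3 lower was 1 without NCsh RANKL library 1 or NCsh no-RANKL library 1 and 0 without NCsh RANKL library 2, and it was 5 after median-ratio scaling.

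**Figure D3:**
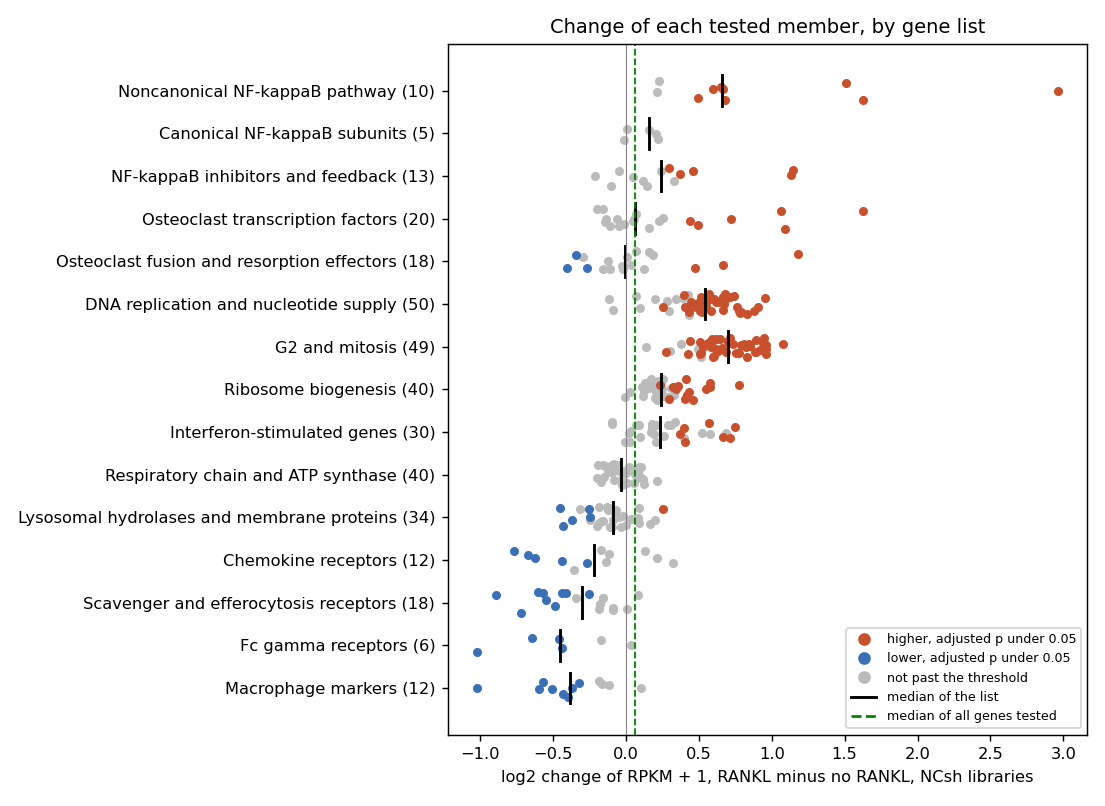
Each point is a tested member of a gene list, placed by its log2 change with RANKL in NCsh libraries, with the black bar at the median of the list and the dashed line at 0.06, the median of all genes tested. The cell division lists lie to the right, the phagocyte lists to the left, and the respiratory chain around 0.

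Genes of cell division rose broadly. Of 50 genes for DNA replication and nucleotide supply 38 rose and 0 fell (median 0.54), and of 49 tested genes for G2 and mitosis 44 rose and 0 fell (median 0.70), beside 11.0% higher among all genes tested. Both libraries with RANKL lay above both without it for 47 of the 50 and for 49 of the 49, where 39.0% of all genes tested did. Over all alternatives the first count stayed between 29 and 44 and the second between 35 and 48, and after median-ratio scaling 1 replication gene fell.

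In the replication list, Uhrf1, which brings DNA methyltransferase to new strands, stood at 17.8 and 17.3 RPKM without RANKL and 34.6 and 35.2 RPKM with it (log2 0.95, SE 0.0587, adjusted p = 2.84e-05). Rrm2, the cell cycle-bound subunit of ribonucleotide reductase, went from 19.6 and 19.1 to 36.1 and 38.2 RPKM (log2 0.91, SE 0.0614, adjusted p = 4.84e-05), and Tk1, thymidine kinase, from 17.4 and 18.5 to 31.6 and 31.2 RPKM (log2 0.78, SE 0.0687, adjusted p = 0.000172). The checkpoint adaptor Clspn (log2 0.83, adjusted p = 0.000283) and the chromatin assembly subunit Chaf1a (log2 0.71, adjusted p = 0.000373) followed. All 5 had groups that did not overlap. They were named for the smallest p in the list, which favours separated groups and close duplicates. The 6 subunits of the MCM helicase, Mcm2 to Mcm7, were all called higher, between 0.50 (Mcm3) and 0.67 (Mcm7). Pcna, the sliding clamp, stood at 217 and 235 RPKM without RANKL and 213 and 204 RPKM with it (log2 -0.11, adjusted p = 0.262) and was 1 of the 2 members below 0. These members outside the naming rule were chosen after their values were seen.

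In the mitotic list, Top2a, the topoisomerase that untangles chromosomes, stood at 18 and 15.8 RPKM without RANKL and 35.3 and 37.9 RPKM with it (log2 1.07, SE 0.0775, adjusted p = 7.14e-05). Birc5, survivin of the chromosomal passenger complex, went from 10.01 and 11.1 to 21.9 and 21.1 RPKM (log2 0.96, SE 0.0740, adjusted p = 9.85e-05), and Aurkb, the kinase of that complex, from 6.32 and 5.99 to 12.3 and 13.5 RPKM (log2 0.96, SE 0.0938, adjusted p = 0.000298). The condensin subunit Ncapd2 (log2 0.92, adjusted p = 0.000172) and cyclin A2 (Ccna2, log2 0.85, adjusted p = 0.000218) rose as well. The step of Top2a was the largest in the list, and the smallest in it was 0.14.

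Of 28 genes for G1 cyclins, kinases, inhibitors and E2F factors 11 rose and 1 fell (median 0.30). The D-type cyclins, which link growth factor signals to the cycle, went opposite ways. Ccnd2 fell from 7.84 and 7.05 to 2.92 and 2.99 RPKM (log2 -1.09, SE 0.0873, adjusted p = 0.000115), while Ccnd1 rose from 147 and 143 to 200.3 and 188 RPKM (log2 0.42, SE 0.0593, adjusted p = 0.00167). Neither pair of groups overlapped, which the naming rule required of Ccnd2. Ccne2 (log2 0.81, adjusted p = 0.000661), the E2F partner Tfdp1 (log2 0.59, adjusted p = 0.000775) and the pocket protein Rbl1 (log2 0.73, adjusted p = 0.00166) were higher.

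Replication-dependent histones were not called in either direction. Of 25 listed genes 6 passed the filter, and their log2 changes ran from -0.49 to -0.07; with limma 0 had an unadjusted p under 0.05, and with voom weights 0 were called. Their transcripts lack a poly(A) tail, and how RNA was selected for sequencing is not given in the sources used here. H2afz, a histone variant with an ordinary transcript, went from 116 and 139.9 to 203 and 200.2 RPKM (log2 0.66, SE 0.0825, adjusted p = 0.00103), and the linker histone variant H1fx from 1.43 and 1.79 to 5.71 and 4.89 RPKM (log2 1.27, SE 0.162, adjusted p = 0.00107).

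Motifs known from cell cycle genes were looked for in the same promoter windows. The E2F element, searched as TTTCCCGC or TTTGGCGC on both strands, lay in 13 of 50 promoters of the replication list (26.0%, 42 of 50 genes with an entry). It lay in 1.56% of all promoters and 3.06% of those of genes tested. The share was 6.32% for genes called higher, which include members of the list, and 1.67% for genes called lower. The cell cycle homology region, searched as TTTGAA on both strands, lay in 30 of 44 promoters of the mitotic list (68.2%, 40 of 50 genes with an entry), against 17.9% of all promoters and 12.1% of those of genes tested. CCAAT lay in 60.0% of promoters of the replication list and 77.3% of the mitotic list, against 37.4% of all promoters. Examples with the match upstream of the start are shown from members that rose, first 4 with the E2F element and then 5 with the cell cycle homology region, each in capitals on the strand of the gene.
Mcm5, chr8:75109345-75109382, plus strand, first capital 149 bases before the start: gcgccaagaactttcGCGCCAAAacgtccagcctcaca
Mcm6, chr1:128359793-128359830, minus strand, first capital 110 bases before the start: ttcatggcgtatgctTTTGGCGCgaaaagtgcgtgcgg
Mcm7, chr5:138172026-138172063, minus strand, first capital 165 bases before the start: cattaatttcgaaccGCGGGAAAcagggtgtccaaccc
Cdc6, chr11:98907998-98908035, plus strand, first capital 138 bases before the start: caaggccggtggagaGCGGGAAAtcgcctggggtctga
Top2a, chr11:99024348-99024383, minus strand, first capital 179 bases before the start: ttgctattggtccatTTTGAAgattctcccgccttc
Cdk1, chr10:69352963-69352998, minus strand, first capital 71 bases before the start: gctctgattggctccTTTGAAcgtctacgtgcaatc
Mki67, chr7:135716475-135716510, minus strand, first capital 116 bases before the start: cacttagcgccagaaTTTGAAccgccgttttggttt
Ncapd2, chr6:125191689-125191724, minus strand, first capital 123 bases before the start: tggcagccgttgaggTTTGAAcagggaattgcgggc
Ccnb2, chr9:70421701-70421736, minus strand, first capital 167 bases before the start: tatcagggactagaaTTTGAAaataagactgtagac
Of the genes printed, Mcm5 (log2 0.60), Mcm6 (0.55), Mcm7 (0.67) and Cdc6 (0.61) are replication factors, and Cdk1 (0.60), Mki67 (0.73) and Ccnb2 (0.62) act in mitosis. A match is a description of the window and was not tested as a binding site. Of the replication genes with an E2F match, Cdt1, Rfc3, Pold3 and Pole2 did not pass the threshold.

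**Figure D4:**
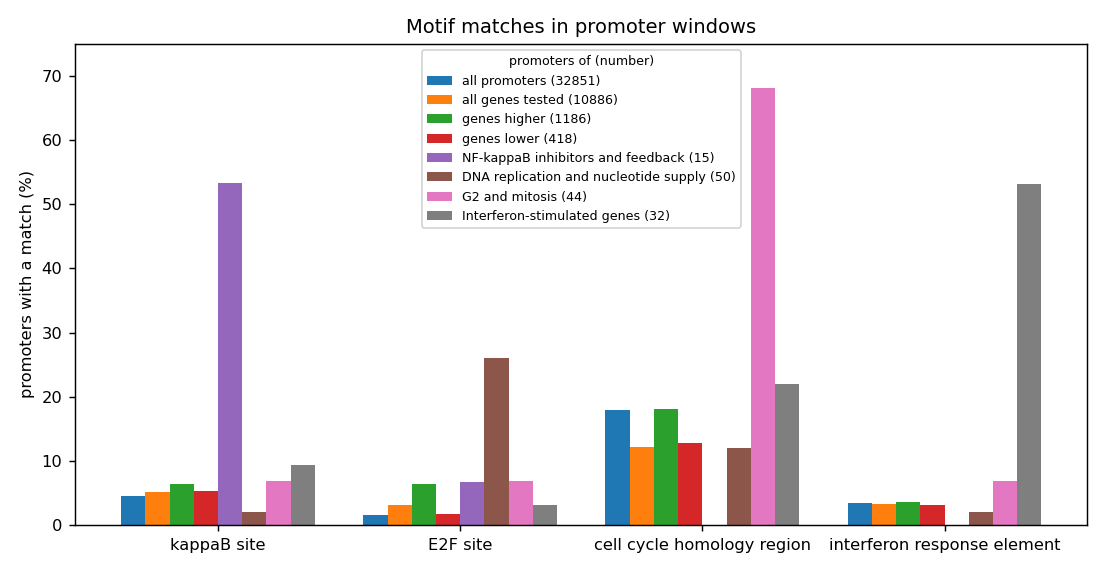
Bars give the percent of promoter windows with at least 1 match to 4 motifs, for all promoters and for groups of genes, with the number of promoters in the key. The inhibitor list stands out for kappaB sites (53.3%), the replication list for E2F (26.0%), the mitotic list for the cell cycle homology region (68.2%) and interferon-stimulated genes for the interferon response element (53.1%).

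Genes of the p53 pathway, which answers to DNA damage and replication stress, had 9 of 24 higher and 2 lower (11.0% and 3.98% of all genes tested). Trp53 went from 24.4 and 23.5 to 35.5 and 32.4 RPKM (log2 0.49, adjusted p = 0.00125) and its ligase Mdm2 from 75.9 and 75 to 99.96 and 100.1 RPKM (log2 0.40, adjusted p = 0.00175). Btg2, an antiproliferative target, fell (log2 -0.59, adjusted p = 0.00246), and Pmaip1, a pro-apoptotic target, rose (log2 0.45, adjusted p = 0.00533). The count of 9 was 4 and that of 2 was 1 without NCsh RANKL library 1, and the count of 9 was 5 without NCsh RANKL library 2. In the BCL-2 family 2 of 16 rose (12.5%, near the 11.0% of all genes tested) and 1 fell. Bcl2a1a was among the rises (log2 0.67, adjusted p = 0.0247), a call that ended without a filter on low values (adjusted p = 0.118). That call also ended without either NCsh no-RANKL library or without NCsh RANKL library 2 (log2 0.44). The fall was that of Bcl2l1, a survival gene, from 65.1 and 61.7 to 48.8 and 50.5 RPKM (log2 -0.35, adjusted p = 0.00858), a call that ended without NCsh RANKL library 1 (log2 -0.32). In that family 2 genes were lower without NCsh no-RANKL library 1 or either TMBIM6sh RANKL library and after median-ratio scaling, and 1 was higher without either NCsh no-RANKL library or NCsh RANKL library 2.

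Ribosome biogenesis genes rose in 15 of 40 cases and fell in 0, with a median of 0.24. Dkc1, the pseudouridine synthase of small nucleolar particles, went from 6.49 and 6.33 to 11.3 and 12.1 RPKM (log2 0.78, SE 0.0836, adjusted p = 0.000472). The other core proteins of those particles rose too, Nop56 from 26.6 and 26.9 to 40.3 and 40.3 RPKM (log2 0.57, SE 0.0647, adjusted p = 0.000604) and Nop58 from 16.3 and 20.2 to 27.3 and 27.8 RPKM (log2 0.58, adjusted p = 0.00384). The count of 15 was 6 without NCsh RANKL library 1 and 8 without NCsh RANKL library 2. Amino acid supply and ATF4 targets had 6 of 21 higher and 0 lower (1 after median-ratio scaling): the glutamine carrier Slc1a5 went from 10.6 and 9.53 to 18.6 and 18.7 RPKM (log2 0.83, SE 0.0839, adjusted p = 0.000357), the mitochondrial serine enzyme Shmt2 from 17.5 and 18.4 to 29.8 and 29.6 RPKM (log2 0.69, SE 0.0843, adjusted p = 0.000915) and the leucine carrier Slc7a5 from 5.17 and 4.58 to 9.37 and 7.54 RPKM (log2 0.68, adjusted p = 0.00451).

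Few genes of energy metabolism were called. Of 40 genes of the respiratory chain and ATP synthase 0 were called by limma, with log2 changes of -0.20 to 0.21 and a median of -0.03. With limma 3 of the 40 had an unadjusted p under 0.05, beside 3331 of all 11040 genes tested. With voom weights 1 was called higher. Without NCsh no-RANKL library 1 the list had 9 lower calls, and without NCsh no-RANKL library 2 it had 4 higher, so its direction followed the library left out. After median-ratio scaling 2 were lower. In glycolysis 1 of 22 rose and 1 fell: Hk3, a myeloid hexokinase, fell from 152 and 149 to 114 and 106 RPKM (log2 -0.45, adjusted p = 0.00194), and the rise, that of the lactate carrier Slc16a1, was lost without NCsh RANKL library 1. Glycolysis had 4 genes lower after median-ratio scaling and 3 with voom weights. Of 23 unfolded protein response and chaperone genes 2 were called higher, but after median-ratio scaling 0 were higher and 2 lower. That count was 0 without NCsh no-RANKL library 2, either NCsh RANKL library or either TMBIM6sh no-RANKL library, and 1 without any of the other 3. Cholesterol synthesis had 2 of 23 higher, a count that was 0 without NCsh RANKL library 1 and 1 without NCsh no-RANKL library 2, NCsh RANKL library 2 or either TMBIM6sh no-RANKL library. After median-ratio scaling 1 was higher and 1 lower, and 1 was lower without NCsh no-RANKL library 2.

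Receptors by which macrophages take up particles were lower. Of 18 scavenger and efferocytosis genes tested 9 fell and 0 rose (median -0.30), where 3.98% of all genes tested fell, and both libraries with RANKL lay below both without it for 14 of the 18 against 17.1% of all genes tested. Over all alternatives the count of falls stayed between 8 and 12. Gas6, which bridges phosphatidylserine on dying cells to TAM receptors, stood at 44.7 and 47.3 RPKM without RANKL and 23.8 and 24.8 RPKM with it (log2 -0.89, SE 0.0653, adjusted p = 7.22e-05), and its receptor Mertk went from 19.7 and 17.5 to 12.3 and 12.02 RPKM (log2 -0.57, SE 0.0974, adjusted p = 0.00436). Axl, a second receptor of Gas6, stood at 2.94 and 2.90 RPKM without RANKL and 1.90 and 2.29 RPKM with it (log2 -0.34, adjusted p = 0.0843). Itgb5, the integrin chain that pairs with alpha V in uptake of dying cells, stood at 75.96 and 76.3 RPKM without RANKL and 45.6 and 46.05 RPKM with it (log2 -0.72, SE 0.0612, adjusted p = 0.000152).

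Scavenger receptors proper followed the same direction. Cd36, which takes up oxidised lipoproteins, stood at 697 and 720.2 RPKM without RANKL and 514 and 529 RPKM with it (log2 -0.44, SE 0.0645, adjusted p = 0.00202), the mannose receptor Mrc1 at 14.9 and 14.5 RPKM without RANKL and 9.73 and 9.74 RPKM with it (log2 -0.55, SE 0.0800, adjusted p = 0.00195) and Cd5l, a secreted macrophage protein, at 33.8 and 37.1 RPKM without RANKL and 21.4 and 24.8 RPKM with it (log2 -0.60, adjusted p = 0.00116). Stab1, Scarf1 and Msr1 were also called lower (-0.48, -0.41 and -0.25), and are named after their values were seen to complete the 9. Scarb1 (log2 0.01) and Lrp1 (-0.16) did not pass the threshold.

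The list of Fc gamma receptors, which bind antibody-coated particles, also held Fcgrt and the signalling chain Fcer1g. It had 4 of 6 genes lower and 0 higher (median -0.45). Fcgr1, the high-affinity receptor, stood at 8.37 and 7.58 RPKM without RANKL and 3.45 and 3.37 RPKM with it (log2 -1.02, SE 0.119, adjusted p = 0.000719) and fell 2.34-fold by the ratio of means. Fcgr3, an activating receptor, stood at 94.95 and 107 RPKM without RANKL and 63.7 and 64.4 RPKM with it (log2 -0.65, SE 0.0802, adjusted p = 0.00100). Fcgr4 was called lower less firmly (log2 -0.46, adjusted p = 0.0370). Its call ended with the 4 NCsh libraries alone (adjusted p = 0.0510) and without a filter on low values (adjusted p = 0.141). The inhibitory receptor Fcgr2b stood at 11.8 and 12.2 RPKM without RANKL and 12.6 and 12.1 RPKM with it (log2 0.04, adjusted p = 0.830), so its groups did not separate, and the shared signalling chain Fcer1g at 419.8 and 512 RPKM without RANKL and 407 and 415 RPKM with it (log2 -0.17, adjusted p = 0.240). The call for Fcgrt, which recycles antibody, ended without NCsh no-RANKL library 2 (adjusted p = 0.0521) or NCsh RANKL library 1 (adjusted p = 0.0962). The count of 4 was 2 without NCsh RANKL library 1 or NCsh no-RANKL library 2.

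**Figure D5:**
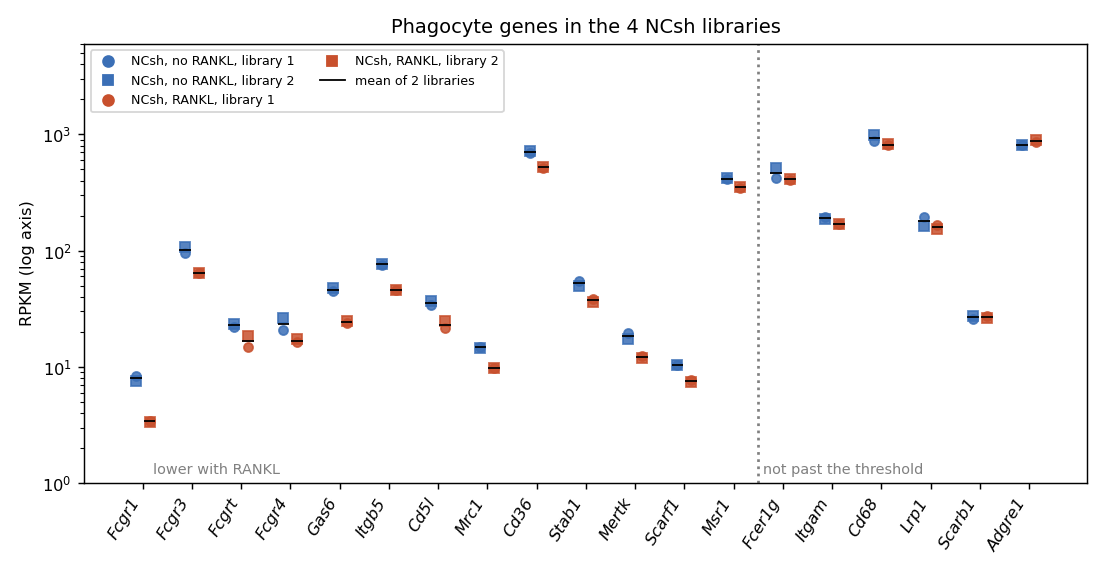
RPKM on a log axis for Fc gamma and scavenger genes called lower (left of the dotted line) and for 6 phagocyte genes that were not called (right), in the 4 NCsh libraries. Points with RANKL sit below those without it for each of the 13 genes on the left, most widely for Fcgr1.

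Of 12 macrophage markers 8 were lower and 0 higher, with a median of -0.38. Fcgr1, Csf1r and Mertk, described above, were among them, as were C1qa, C1qb, C1qc and Cd14. Adgre1, the F4/80 antigen, stood at 818 and 815 RPKM without RANKL and 868 and 890.1 RPKM with it (log2 0.11, adjusted p = 0.379), and Cd68 at 880.4 and 985 RPKM without RANKL and 816 and 821 RPKM with it (log2 -0.19, adjusted p = 0.142). In whole cultures fewer cells of a type and less RNA per cell cannot be told apart. Without NCsh RANKL library 1 the count was 4, and without NCsh RANKL library 2 it was 5.

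Complement genes went in both directions, 2 of 13 higher and 5 lower. C3, the central component, stood at 10.1 and 9.15 RPKM without RANKL and 46.1 and 43.7 RPKM with it (log2 2.11, SE 0.0712, adjusted p = 5.55e-07) and rose 4.67-fold by the ratio of means. C5ar1, the receptor of the C5a fragment, stood at 51.7 and 49.8 RPKM without RANKL and 30.2 and 28.4 RPKM with it (log2 -0.77, SE 0.0790, adjusted p = 0.000373), and Cd55, which limits complement on the cell's own surface, went from 5.44 and 6.004 to 8.93 and 8.42 RPKM (log2 0.53, adjusted p = 0.00201). The initiating component C1qc went from 167 and 193 to 130.1 and 136 RPKM (log2 -0.43, adjusted p = 0.00605), a call that ended without NCsh RANKL library 1 (adjusted p = 0.0636). Of the 5 falls, 1 was left when NCsh RANKL library 1 was omitted, 2 when NCsh RANKL library 2 was, and 3 when NCsh no-RANKL library 2 or either TMBIM6sh no-RANKL library was, while 8 fell after median-ratio scaling or with voom weights.

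Chemotactic receptors fell in 5 of 12 cases and rose in 0 (median -0.22). Beside C5ar1, the formyl peptide receptor Fpr1 went from 87.5 and 94.9 to 68.7 and 65.01 RPKM (log2 -0.44, adjusted p = 0.00300). Without either NCsh RANKL library the count was 3, and without NCsh no-RANKL library 2 or with voom weights 1 receptor rose. C5ar1 also stands in the complement list. Among 17 chemokines 5 fell and 2 rose, and 1 rose without NCsh no-RANKL library 1 or either NCsh RANKL library. The 2 rises were 11.8% of the chemokines tested, near the 11.0% of all genes tested. Ccl7, which draws monocytes, stood at 21.2 and 22.7 RPKM without RANKL and 9.34 and 8.90 RPKM with it (log2 -1.18, SE 0.0720, adjusted p = 2.84e-05), and Ccl2, with the same receptor, went from 87.9 and 97.3 to 66.8 and 61.95 RPKM (log2 -0.52, adjusted p = 0.00235). Ccl4 (115 and 138 to 93.1 and 83.9 RPKM, log2 -0.51, adjusted p = 0.00423) and Cxcl14 (23.9 and 24 to 12.3 and 14.6 RPKM, log2 -0.79, adjusted p = 0.00127) were lower too. Against these, Cxcl10, a chemokine that draws T cells, stood at 1.90 and 1.02 RPKM without RANKL and 8.36 and 6.78 RPKM with it (log2 1.82, SE 0.215, adjusted p = 0.000775).

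Interferon-stimulated genes leaned upward, with 7 of 30 tested genes higher, 0 lower, 27 above 0 (63.2% of all genes tested were) and a median of 0.23. The smallest p in the list was that of Ifit1, an RNA-binding antiviral protein, which went from 3.08 and 2.38 to 5.16 and 4.65 RPKM (log2 0.67, SE 0.133, adjusted p = 0.00976), and its call ended without NCsh no-RANKL library 2 (adjusted p = 0.0519) or NCsh RANKL library 1 (adjusted p = 0.0799). Leaving out NCsh RANKL library 1 left 1 call, leaving out NCsh no-RANKL library 2 left 2, and leaving out NCsh no-RANKL library 1 left 4. The interferon response element, searched by its usual consensus of a spaced pair of GAAA on both strands, lay in 17 of 32 promoters of the list (53.1%, 27 of 34 genes with an entry), against 3.44% of all promoters. Among 7 interferon regulatory factors tested, Irf8 fell and Irf1 rose (log2 0.31, adjusted p = 0.0182), and the call of Irf1 ended without NCsh no-RANKL library 1 (adjusted p = 0.0637) or NCsh RANKL library 2 (adjusted p = 0.123).

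Antigen presentation was mixed. Of 15 genes for costimulation and maturation of antigen-presenting cells 5 rose and 2 fell. Icam1, an adhesion molecule, stood at 39.9 and 41.1 RPKM without RANKL and 91.2 and 89.1 RPKM with it (log2 1.14, SE 0.0674, adjusted p = 2.78e-05). Il4i1, an L-amino acid oxidase, stood at 0.575 and 0.602 RPKM without RANKL and 3.43 and 3.42 RPKM with it (log2 1.48, SE 0.125, adjusted p = 0.000152), and Fscn1, an actin bundler of mature dendritic cells, went from 1.15 and 1.26 to 3.41 and 2.37 RPKM (log2 0.80, adjusted p = 0.00395). Cd83 (9.77 and 11.2 to 6.85 and 6.86 RPKM, log2 -0.54, adjusted p = 0.00262) and Marcksl1 (124 and 125 to 77.7 and 79.01 RPKM, log2 -0.67, adjusted p = 0.000135) fell. The count of 5 higher was 3 without either NCsh RANKL library.

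For MHC class I presentation 4 of 24 genes were higher and 0 lower, led by H2-Q7 (15.3 and 16.6 to 25.8 and 27.2 RPKM, log2 0.70, adjusted p = 0.000364), and the count was 2 without NCsh RANKL library 1. Falls numbered 2 after median-ratio scaling and 1 without either TMBIM6sh RANKL library. The 4 rises were 16.7% of the list, beside 11.0% of all genes tested. In the same family as H2-Q7, H2-Q2 fell (15.8 and 17.4 to 7.96 and 7.86 RPKM, log2 -0.98, adjusted p = 0.000949). These genes are near-identical copies, so the counting may split their reads and their values are uncertain. For MHC class II 0 of 11 rose and 1 fell, March1, a ligase that removes class II from the surface (log2 -0.44, adjusted p = 0.00497), whose call ended without NCsh RANKL library 1 (adjusted p = 0.0516); without NCsh no-RANKL library 1 or after median-ratio scaling the count was 2.

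Cytokine receptor chains rose in 4 of 21 cases and fell in 5. Il2rg, the chain shared by the receptors of interleukins such as IL-4 and IL-15, stood at 28.5 and 25.2 RPKM without RANKL and 95.98 and 92.2 RPKM with it (log2 1.77, SE 0.0729, adjusted p = 1.82e-06). Its kinase partner Jak3 went from 7.06 and 6.99 to 9.84 and 10.04 RPKM (log2 0.45, adjusted p = 0.00380) and Jak2 from 9.38 and 9.60 to 13.4 and 14.4 RPKM (log2 0.50, adjusted p = 0.00129). Of the JAK, STAT, SOCS and PIM genes 6 of 20 rose and 0 fell, including the feedback inhibitor Socs1 (1.49 and 1.10 to 3.29 and 2.71 RPKM, log2 0.80, adjusted p = 0.00290), and 1 fell without NCsh no-RANKL library 2 or after median-ratio scaling. Csf3r, the receptor of granulocyte growth factor, fell (6.66 and 6.61 to 3.81 and 4.26 RPKM, log2 -0.60, adjusted p = 0.00213), as did Il17ra (log2 -0.40, adjusted p = 0.00446). Of the receptor chains 2 rose without NCsh no-RANKL library 1 or NCsh RANKL library 1, and 3 fell without either NCsh RANKL library.

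In the TNF family 3 of 18 tested genes rose and 4 fell. Rises were 16.7% of that family, 18.2% of the Toll-like receptor list, 21.4% of the C-type lectin list and 15.4% of the inflammasome list. Among all genes tested 11.0% rose. Tnf itself stood at 47.2 and 50.5 RPKM without RANKL and 35.6 and 33.6 RPKM with it (log2 -0.49, SE 0.0610, adjusted p = 0.00103), and its second receptor Tnfrsf1b at 94.6 and 91.2 RPKM without RANKL and 125 and 124 RPKM with it (log2 0.42, SE 0.0586, adjusted p = 0.00165). Fas, a death receptor, was higher (log2 0.75, adjusted p = 0.00726), a call that ended without NCsh RANKL library 1 (adjusted p = 0.0538). Without NCsh RANKL library 1 the family had 1 gene higher. Toll-like receptors and adaptors had 4 of 22 higher and 5 lower: Tlr9, the DNA sensor, rose (5.08 and 4.82 to 8.57 and 7.28 RPKM, log2 0.58, adjusted p = 0.00323), and Tlr13 (129 and 128 to 91.02 and 98.1 RPKM, log2 -0.44, adjusted p = 0.00177) and Tlr8 (35.2 and 34.96 to 26.9 and 26.9 RPKM, log2 -0.37, adjusted p = 0.00229), sensors of RNA, fell. Without NCsh RANKL library 1 the counts were 2 higher and 3 lower, and without NCsh RANKL library 2 there were 3 lower. After median-ratio scaling 4 were higher and 9 lower. In the C-type lectin list, which also holds the galectin Lgals9, 3 of 14 genes rose and 3 fell. Clec5a (5.52 and 5.30 to 10.2 and 10.5 RPKM, log2 0.82, adjusted p = 0.000152) and Clec4e (log2 0.46, adjusted p = 0.00140) were higher. Lgals9 fell (log2 -0.46, adjusted p = 0.00227) and kept its call under each alternative. The falls of Clec7a (log2 -0.35) and Clec4a1 (log2 -0.26) lost their calls without a filter on low values (adjusted p = 0.0513 and 0.0579). The lectin falls numbered 5 after median-ratio scaling, 6 without NCsh no-RANKL library 1 and 1 without NCsh no-RANKL library 2 or NCsh RANKL library 1, and the rises 5 without NCsh no-RANKL library 2. In the inflammasome list 2 of 13 rose and 0 fell, Gsdmd, the pore former of pyroptosis (16.05 and 17.8 to 30.3 and 25.5 RPKM, log2 0.69, adjusted p = 0.00149), and Casp4 (log2 0.46, adjusted p = 0.00321), and 1 fell without NCsh no-RANKL library 2.

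Matrix proteases and their inhibitors had 2 of 16 higher (12.5%, near the 11.0% of all genes tested) and 3 lower (6 after median-ratio scaling). Htra1, a secreted serine protease, stood at 0.559 and 0.553 RPKM without RANKL and 7.76 and 6.14 RPKM with it (log2 2.35, SE 0.118, adjusted p = 8.28e-06) and had a ratio of means of 12.5. Plau, the urokinase protease, stood at 61.2 and 57.8 RPKM without RANKL and 33.7 and 32.6 RPKM with it (log2 -0.83, SE 0.0728, adjusted p = 0.000172), and Mmp12, macrophage elastase, went from 59.95 and 64.4 to 47.1 and 42.1 RPKM (log2 -0.47, adjusted p = 0.00227). Of 27 integrin and podosome genes 2 rose and 4 fell, with Itga6 lower (22.5 and 19.8 to 13.8 and 15.5 RPKM, log2 -0.50, adjusted p = 0.00401) beside Itgb5. The rises were 0 without NCsh no-RANKL library 2 or either NCsh RANKL library, and 1 without either TMBIM6sh no-RANKL library, and the falls were 2 without either NCsh RANKL library. After median-ratio scaling 0 rose and 7 fell. Of 16 dual specificity phosphatases and other MAP kinase feedback genes 3 fell and 0 rose, led by Dusp6, which switches off ERK (36.2 and 35.2 to 22.2 and 21.1 RPKM, log2 -0.70, SE 0.0603, adjusted p = 0.000172), and 1 fell without NCsh RANKL library 2. Without either NCsh no-RANKL library 1 gene rose.

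Lysosomal genes fell in 5 of 34 cases and rose in 1 (median -0.09). Lgmn, legumain, went from 401 and 443 to 303 and 313 RPKM (log2 -0.45, adjusted p = 0.00211). The count of 5 was 3 without NCsh RANKL library 1 and 2 without NCsh RANKL library 2, and 14 genes were called lower after median-ratio scaling. The rise, that of Ids, was lost after that scaling and without any library but NCsh no-RANKL library 1 and the 2 TMBIM6sh RANKL libraries. Of 18 V-ATPase subunits 2 fell, Atp6v0a1 (52.5 and 47.7 to 35.7 and 35.4 RPKM, log2 -0.48, adjusted p = 0.00137) and Atp6v0d2, with 5 without NCsh no-RANKL library 1, 1 without any of the other 3 NCsh libraries or the 2 TMBIM6sh no-RANKL libraries, and 6 after median-ratio scaling. In the list of LXR and lipid efflux genes 1 of 14 rose and 3 fell: Nr1h3, LXR alpha itself, was higher (25.9 and 26.3 to 38.6 and 35.6 RPKM, log2 0.49, adjusted p = 0.00149), and lipoprotein lipase Lpl (337 and 332 to 249 and 246 RPKM, log2 -0.43, adjusted p = 0.00164) and Apoe (569 and 692 to 419 and 427 RPKM, log2 -0.57, adjusted p = 0.00364) were lower. Without NCsh no-RANKL library 1, 2 genes rose.

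In the list of NRF2 targets and antioxidant enzymes 4 of 28 genes fell and 1 rose. The falls were lost without either NCsh RANKL library, and their number also moved when other libraries were left out. After median-ratio scaling 7 fell and 0 rose. The rise was that of Keap1, which encodes the inhibitor of NRF2. Its call was lost without any 1 of the 8 libraries, although other genes rose without NCsh no-RANKL library 2. Hmox1, haem oxygenase, went from 967 and 1097 to 749.9 and 735 RPKM (log2 -0.47, adjusted p = 0.00661), a call that ended without NCsh RANKL library 1 (adjusted p = 0.0629) or NCsh RANKL library 2 (adjusted p = 0.0664). Slc40a1, the iron exporter ferroportin, fell (15.6 and 15.8 to 9.76 and 8.69 RPKM, log2 -0.71, SE 0.0691, adjusted p = 0.000288) and kept its call under each alternative. It belongs to the list of 14 metallothionein and iron genes, of which 2 fell and 1 rose; the fall of Hmox1 was lost without either NCsh RANKL library and the rise without NCsh no-RANKL library 2 or either NCsh RANKL library and after median-ratio scaling, while 3 fell without NCsh no-RANKL library 1 or either TMBIM6sh RANKL library. Of 8 Notch genes tested 2 rose and 1 fell; there were 0 rises without NCsh RANKL library 1, 3 without NCsh no-RANKL library 1 and 1 without any of the others or after median-ratio scaling, and 0 falls without NCsh no-RANKL library 1 or NCsh RANKL library 2.

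Beyond the lists, the largest changes at a mean of at least 5 RPKM included further regulators. Gpr132, a G protein-coupled receptor of myeloid cells, stood at 0.791 and 0.979 RPKM without RANKL and 7.66 and 7.70 RPKM with it (log2 2.21, SE 0.119, adjusted p = 1.31e-05). Jarid2, a DNA-binding partner of Polycomb complex PRC2, stood at 4.71 and 4.29 RPKM without RANKL and 11.97 and 11.5 RPKM with it (log2 1.21, SE 0.0823, adjusted p = 4.84e-05), and Phyhd1, a dioxygenase, went from 6.32 and 6.75 to 18.7 and 15.6 RPKM (log2 1.26, adjusted p = 0.000135). Groups did not overlap for any of the 3, which the naming rule required.

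Among the falls, the ribonucleases Ang (5.88 and 8.49 to 2.76 and 2.59 RPKM, log2 -1.14, adjusted p = 0.00119) and Rnase4 (22.02 and 26.7 to 12.02 and 10.1 RPKM, log2 -1.07, adjusted p = 0.000288) share a start site on chromosome 14, so their reads may be shared. Ctla2b (113 and 141 to 54.2 and 56.6 RPKM, log2 -1.18, adjusted p = 0.000113) and Ctla2a (11.1 and 13.6 to 6.27 and 6.66 RPKM, log2 -0.84, adjusted p = 0.00213), inhibitors of cysteine proteases, are close copies, and how their reads were divided is uncertain. Smagp, a small membrane protein, fell from 13.5 and 13.8 to 7.37 and 6.46 RPKM (log2 -0.90, adjusted p = 0.000277). At 1 to 5 RPKM Hpgd, which breaks down prostaglandins, fell (3.05 and 3.46 to 0.941 and 0.654 RPKM, log2 -1.25, SE 0.130, adjusted p = 0.000403).

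The largest differences in RPKM lay in abundant genes with small log2 changes. Ptma, prothymosin alpha, gained most (348 and 391 to 504 and 506 RPKM, log2 0.45, adjusted p = 0.00265), followed by Anxa1 (334 and 374 to 471 and 472 RPKM, log2 0.41, adjusted p = 0.00631), whose call ended without NCsh RANKL library 1 (adjusted p = 0.0583) or NCsh RANKL library 2 (adjusted p = 0.0512), and by the carrier Slc13a3 (234 and 226 to 319 and 324 RPKM, log2 0.48, adjusted p = 0.00169). Hmga1b, an architectural chromatin protein, went from 161 and 159 to 222 and 234 RPKM (log2 0.51, adjusted p = 0.000657). The largest loss was that of Actb, cytoplasmic actin, from 1455 and 1502 to 1208 and 1161 RPKM (log2 -0.32, adjusted p = 0.0234), a call that ended without NCsh RANKL library 1 (adjusted p = 0.125), NCsh RANKL library 2 (adjusted p = 0.165), TMBIM6sh no-RANKL library 1 (adjusted p = 0.0691) or TMBIM6sh no-RANKL library 2 (adjusted p = 0.0691). Plin2, which coats lipid droplets, went from 785 and 854 to 586 and 609 RPKM (log2 -0.46, adjusted p = 0.00392), a call that ended without NCsh RANKL library 1 (adjusted p = 0.0571).

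Several short RNA genes met the naming rule on very few tags. Snord2 had 3 and 3 tags without RANKL and 8 and 13 with it, and Mir223, the precursor of a myeloid microRNA, had 7 and 12 tags against 2 and 4. Both calls ended in the test on recovered tags, and that of Mir223 also without NCsh no-RANKL library 2 (adjusted p = 0.0547) or NCsh RANKL library 1 (adjusted p = 0.0824). Short genes turn 1 tag into a large RPKM step, and their values are given only for completeness.

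The same RANKL contrast in the 4 TMBIM6sh libraries called 942 genes higher (8.53% of genes tested) and 761 lower (6.89%), and the 2 contrasts share no library but share the estimate of spread. Together these were 1703 calls, and fits without 1 of the 4 TMBIM6sh libraries made 826 to 1066. Of the 1214 genes higher in NCsh libraries 682 (56.2%, or 72.4% of the 942) were also called higher there and 2 were called lower; of the 439 lower genes 345 (78.6%, or 45.3% of the 761) were also called lower and 1 higher. Of the 43 rises of at least 2-fold 34 had the same call in TMBIM6sh libraries, and of the 10 falls 7 did. Log2 changes in TMBIM6sh libraries were 3.11 for Traf1 (in NCsh libraries 2.97), 1.80 for Nfkb2 (1.63), 2.62 for C3 (2.11), 0.77 for Fos (0.72), 1.66 for Mmp9 (1.18), -0.69 for Csf1r (-0.51) and -1.08 for Gas6 (-0.89). The noncanonical list had 8 genes higher in both, the replication list 33, the mitotic list 41, and the scavenger list 8 lower in both.

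The difference between the 2 responses was tested as an interaction. An unadjusted p under 0.05, not corrected for the number of genes tested, was found for 857 genes. After adjustment 1 of 11040 genes (0.00906%) passed. The count was 2 without NCsh no-RANKL library 1 or TMBIM6sh no-RANKL library 2, and 0 without any of the other 3 TMBIM6sh libraries. That gene was Snord104, a short nucleolar RNA, with 1 and 2 tags without RANKL and 10 and 7 with it in NCsh libraries (interaction log2 -2.88, adjusted p = 0.00998). For Mmp9 (interaction log2 0.48, adjusted p = 0.51) and Fgl2, a secreted fibrinogen-like protein (log2 0.68 in NCsh and 1.42 in TMBIM6sh libraries, interaction adjusted p = 0.0725), the difference did not pass the threshold, which does not show that the responses were alike.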

How the data were processed

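RNA from 8 macrophage libraries was sequenced, and the authors deposited 1 table of RPKM values for 24940 genes. Per the file headers, HOMER counted reads of both strands over mm10 exons and scaled them to RPKM, with transcripts of a gene condensed to 1 entry; the column heads write FPKM. Per the submitters' processing notes, HISAT2 was among the tools, with no version or parameters given.

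RPKM values were used as deposited. Genes with at least 1 RPKM in at least 2 of 8 libraries (11040) were tested on log2(RPKM + 1), which understates the change of low genes, with limma 3.58.1 in R 4.3.3 (1 mean per group, all 8 libraries, 4 residual and 5.54 prior degrees of freedom, intensity trend, two-sided). P-values were adjusted by Benjamini-Hochberg over all 11040 genes at a threshold of 0.05. In the text, log2 is the fitted change with RANKL, SE its standard error, and a ratio of means is on the RPKM scale. With 2 libraries against 2, an exact permutation test of 1 gene cannot go below 0.333. The code was tested on simulated data.

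Tags per gene and library were recovered from the steps of the values (100.0% of 7565 to 7878 checked values per NCsh library within 0.1 of a whole tag) and gave the depth and the voom alternative. Reads are not molecules, so precision from depth covers counting error only.

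The libraries, lists and named genes were chosen with earlier results of these data known. Named were preset RANK and osteoclast genes; the 12 largest rises and falls where the higher group averaged 5 RPKM or more, and the 6 largest at 1 to 5 RPKM and by RPKM difference, all called and with groups that did not overlap; the 5 members of each list with the smallest p; and the genes nearest to the threshold in the interaction. Named outside this rule, after their values were seen, were 4833438C02Rik, Adgre1, Axl, Bcl3, C1qa, C1qb, Ccnb2, Cd14, Cd68, Cdc6, Cdk1, Cdt1, Cyld, Fcgr2b, Lrp1, Mki67, Pold3, Pole2, Rfc3, Scarb1, Tnfaip3, Tnip1, Tnip3, Tyrobp and those so marked in the text. Alternatives covered the pseudocount, the filter, scaling, the spread estimate, the replicate number and each library. Promoter sequences are from RefSeq (GRCm38.p6). Some genes that met the rule are not reported here.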

Additional observations from a re-analysis of the deposited data

Results flagged for a closer look

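Snord104 responded to RANKL differently in the 2 hairpin groups by the interaction test (limma adjusted p = 0.00998). Its log2 response in TMBIM6sh minus that in NCsh libraries was -2.88. It stood at 0.525 and 0.974 RPKM without RANKL and 5.45 and 3.40 RPKM with it in NCsh libraries, and at 4.08 and 3.90 RPKM without and 1.08 and 1.09 RPKM with it in TMBIM6sh libraries. The NCsh values rest on 1, 2, 10 and 7 tags. The call was lost without TMBIM6sh no-RANKL library 1 (adjusted p = 0.0937), without TMBIM6sh RANKL library 1 (0.188) or 2 (0.184), without a filter on low values (0.113) and with voom weights on recovered tags (0.335).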

How the results depend on the processing

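Of 271 named genes tested 203 were called, 125 of them under each alternative; 78 lost the call under at least 1 alternative, and 0 reversed. Over the alternatives run, the rises numbered 7 to 9 for the noncanonical NF-kappaB list, 29 to 44 for DNA replication and 35 to 48 for G2 and mitosis, and the falls 8 to 12 for scavenger receptors. The 1653 calls became 1020 with the 4 NCsh libraries alone, 2484 with voom weights on recovered tags (chosen after seeing the data) and 694 to 1520 when each library was left out. The 1214 rises became 800 after median-ratio scaling, 755 with the NCsh libraries alone and 503 to 1093 by leaving out a library; the 439 falls became 836, 265 and 191 to 543, and 674 with voom weights. Rises of at least 2-fold numbered 117 with a pseudocount of 0.1, 24 with a filter of 5 RPKM, 131 with voom weights and 39 to 54 by leaving out a library; falls of that size numbered 28, 6, 31 and 9 to 17. The single interaction call became 8 without a filter, 0 with the stricter one, 2 without an intensity trend and 0 to 2 by leaving out a library. TMBIM6sh calls ranged from 826 to 2056 by leaving out a library. Falls of macrophage markers numbered 5 without a filter or with the NCsh libraries alone and 4 to 9 by leaving out a library, and falls of Fc gamma receptors 2 without a filter and 2 to 5. Rises of ribosome biogenesis genes numbered 24 with voom weights and 6 to 18 by leaving out a library, and falls of chemokine receptors 3 to 6. A group with 1 library left was assumed to vary like the others. Same-numbered libraries did not deviate together (correlations -0.0651 to 0.0625). With the replicate block 1608 genes were called (1177 higher, 431 lower), 1670 in TMBIM6sh libraries and 1 in the interaction, with 8 noncanonical, 38 replication, 45 mitotic and 18 ribosome biogenesis genes higher. The 2 count-based tests planned on recovered tags were not run, because the deposited unit is RPKM. Depth limits genes of a few tags: at 2 kb 1 tag is 0.0175 to 0.0196 RPKM in NCsh libraries.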
